A study of Mus musculus with 100 samples.

Results

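The regions described here are all those that the deposited tables assign to 8 CXC chemokine genes: Cxcl1, Cxcl2, Cxcl3, Cxcl5, Cxcl9, Cxcl10, Cxcl11 and Cxcl16. A region belonged to a gene when the gene's start site was the nearest one, which says nothing of which gene the region acts on. There were 501 such regions among 610301 in 15 tables of chromatin immunoprecipitation sequencing (ChIP-seq), and all 501 could be tested except 1 H3K27ac window. By gene, 106 were assigned to Cxcl5, 102 to Cxcl1, 90 to Cxcl2, 67 to Cxcl11, 62 to Cxcl16, 59 to Cxcl10, 14 to Cxcl3 and 1 to Cxcl9. Cells came from C57Bl6 mice aged 8 to 12 weeks, with 2 libraries a group. NCoR, HDAC3, p65, Fosl2, PU.1, PGC1b, ERK1 and p300 were profiled in wild type bone marrow-derived macrophages (BMDMs) given Veh or KLA for 6 h. The p300 libraries called Veh are named as 0 h of KLA, so their baseline is a time point and not a vehicle given for the same time, and no time is labelled for Veh of PGC1b and ERK1. KLA is Kdo2 lipid A, an agonist of the receptor TLR4. PGC1b was also profiled in wild type BMDMs with DMSO and Veh, DMSO and KLA, or an ERK inhibitor (ERKi) and KLA, and NCoR with ERKi and KLA. No KLA time is labelled for these groups. H3K27ac, an acetylation of histone H3 found at active promoters and enhancers, was measured with DMSO and Veh, DMSO and KLA, or the HDAC3 inhibitor RGFP966 and KLA in wild type cells. It was also measured with Veh or KLA in NCoR flox/flox (WT) and NCoR flox/flox, LysMCre (NKO) cells, and in PGC1b flox/flox and PGC1b flox/flox, LysMCre cells. LysMCre acts in the whole myeloid lineage, so these deletions were not limited to mature macrophages, and the floxed alleles are also carried by their controls. ERK1 and p300 were further profiled in wild type cells cultured from bone marrow toward osteoclasts, at day 0 and day 4 of RANKL treatment. The ERK1 library names there read NCoRWT, except for day 4 replicate 2. RANKL is a factor essential for osteoclast differentiation. By the paper, marrow was first grown with M-CSF into osteoclast precursors, and then with both M-CSF and RANKL. Inputs (30 samples) were not analysed here.

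CXC chemokines are small secreted proteins that direct the movement of leukocytes. CXCL1, CXCL2, CXCL3 and CXCL5 act on the receptor CXCR2 and attract neutrophils. CXCL9, CXCL10 and CXCL11 act on CXCR3, attract activated T cells, and are known as interferon-inducible genes. CXCL16 is made as a membrane-bound protein and binds CXCR6. Macrophages make several of them after TLR4 is engaged, when the NF-kB subunit p65 enters the nucleus. PU.1 is the lineage factor of macrophages, Fosl2 is a subunit of AP-1, p300 is a histone acetyltransferase, NCoR and HDAC3 form a complex best known for removing acetyl groups, PGC1b is a coactivator, and ERK1 is a kinase.

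In the mm10 build 7 of the 8 genes lie on chromosome 5 in 2 groups: Cxcl5 (chr5:90759298-90761625), Cxcl3 (chr5:90786101-90788093), Cxcl1 (chr5:90891245-90893121) and Cxcl2 (chr5:90903899-90905938) on the plus strand, and Cxcl9 (chr5:92321331-92328079), Cxcl10 (chr5:92346638-92348889) and Cxcl11 (chr5:92359544-92363296) on the minus strand. Cxcl16 lies apart (chr11:70454389-70459984, minus strand). RefSeq lists Cxcl11 of this mouse strain as a transcribed pseudogene. Of the 501 regions, 317 were annotated as intergenic, 94 as intronic, 58 as promoter, 19 at a transcript end, 7 in a 3' UTR and 6 in non-coding RNA. The 84 regions inside an Art3 transcript were assigned to Cxcl11 (58) or Cxcl10 (26), since Art3 runs across both genes.

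The promoter sequences are shown because they carry the letters that the p65 data below can be set beside. RefSeq promoters (250 bases before to 50 after the start site, GRCm38.p6, the same build) were found for 5 of the 8 genes, and 4 of them held the NF-kB letters (GGGA, 2 free bases, T, 1 free base, CC) on either strand, as did 4.01% of 32851 RefSeq promoters. In the sequences, written 5' to 3' along the gene's strand, capitals mark these letters and, in Cxcl10 alone, the interferon regulatory factor (IRF) letters (GAAA, 2 free bases, GAAA), which 3.44% of promoters hold. Cxcl1, Cxcl2 and Cxcl3 share the same run of capitals, in which 2 matches overlap. It began 71 bases before the start site in Cxcl1, 97 in Cxcl2 and 73 in Cxcl3. Cxcl10 held 2 separate NF-kB matches, beginning 159 and 103 bases before its start site, and an IRF match at 213. The Cxcl9 promoter held neither. The last 2 sequences are the p65 regions 56.2 kb upstream of Cxcl5 (chr5:90702954-90703156), which held no match to either motif, and 8.0 kb upstream of Cxcl16 (chr11:70467912-70468148), with 1 NF-kB match.
Cxcl1 promoter: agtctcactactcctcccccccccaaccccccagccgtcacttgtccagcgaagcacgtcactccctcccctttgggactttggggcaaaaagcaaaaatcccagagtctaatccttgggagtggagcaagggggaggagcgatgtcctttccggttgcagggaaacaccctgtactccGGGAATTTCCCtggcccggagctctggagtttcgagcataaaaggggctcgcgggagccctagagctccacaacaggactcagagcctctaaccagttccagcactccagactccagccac
Cxcl2 promoter: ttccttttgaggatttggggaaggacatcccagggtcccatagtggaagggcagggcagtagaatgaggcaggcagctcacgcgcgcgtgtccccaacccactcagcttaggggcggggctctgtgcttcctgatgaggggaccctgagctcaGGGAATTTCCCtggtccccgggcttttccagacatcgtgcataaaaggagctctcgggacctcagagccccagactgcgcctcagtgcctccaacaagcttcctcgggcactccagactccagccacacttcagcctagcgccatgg
Cxcl3 promoter: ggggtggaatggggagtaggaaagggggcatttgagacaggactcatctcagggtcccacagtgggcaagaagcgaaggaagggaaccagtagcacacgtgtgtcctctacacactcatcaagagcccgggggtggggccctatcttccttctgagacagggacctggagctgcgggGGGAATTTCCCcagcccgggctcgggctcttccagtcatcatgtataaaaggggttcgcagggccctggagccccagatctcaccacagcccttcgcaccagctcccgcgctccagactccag
Cxcl10 promoter: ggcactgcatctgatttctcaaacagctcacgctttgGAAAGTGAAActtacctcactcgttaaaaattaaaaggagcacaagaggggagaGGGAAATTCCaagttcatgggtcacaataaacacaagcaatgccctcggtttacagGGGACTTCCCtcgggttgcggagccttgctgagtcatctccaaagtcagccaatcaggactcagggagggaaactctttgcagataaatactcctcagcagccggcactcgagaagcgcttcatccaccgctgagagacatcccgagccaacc
Cxcl5 p65 region: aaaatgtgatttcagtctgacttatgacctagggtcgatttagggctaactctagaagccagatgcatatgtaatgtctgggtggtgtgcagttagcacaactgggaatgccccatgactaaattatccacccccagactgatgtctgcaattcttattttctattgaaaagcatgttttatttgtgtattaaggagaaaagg
Cxcl16 p65 region: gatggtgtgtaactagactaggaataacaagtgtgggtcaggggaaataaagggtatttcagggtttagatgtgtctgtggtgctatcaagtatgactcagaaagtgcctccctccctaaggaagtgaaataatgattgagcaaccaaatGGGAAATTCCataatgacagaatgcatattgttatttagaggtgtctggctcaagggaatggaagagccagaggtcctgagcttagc

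A match is a description of letters only. Within the central 200 bp of p65 regions, the NF-kB letters were found in 8 of 56 CXC regions (14.3%), in 8.21% of p65 regions that rose with KLA and in 6.26% of all. The AP-1 letters TGANTCA were found in 16 of 56 CXC regions (28.6%), against 26.004% of the regions that rose and 21.7% of all.

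Values are deposited tag counts per region, given here as tags per 10 M of the library total stated in each table, which ran from 4.30 to 21.5 M tags. The counting error of a level falls with its tag count. The share of tags inside the tabulated regions ran from 2.79% to 52.8% of a library. A region is said to have risen or fallen when edgeR's quasi-likelihood test gave an adjusted p under 0.05 over all regions of its table and the change was over 2-fold. A region with almost no tags in a group was listed through peaks of another group. Its change was thus largely set by that selection, and its adjusted p adds little. The sign ± gives the standard error (SE) of a log2 fold change, and n = 2 libraries a group throughout. In H3K27ac with DMSO and Veh, 8 of 8 macrophage marker genes had a promoter region (summed level 3485 to 3488) and the T cell, B cell and epithelial lists had none. Of 4 neutrophil markers S100a8 alone had one (56.5 to 58.4). Other experiments were less clear. In H3K27ac of WT cells with Veh, from the NCoR flox/flox experiment, 5 of 8 macrophage markers had a promoter region, without Csf1r, Adgre1 and Lyz2. In PU.1 with Veh 8 of 8 macrophage markers had one (2375 to 2395). So did 3 of 4 neutrophil markers (248 to 273) and 1 gene in each of the T cell, B cell and epithelial lists. Loss of NCoR or PGC1b itself was not analysed here.

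With KLA, p65 increased at nearly every region of these genes and NCoR, HDAC3, PGC1b, ERK1, Fosl2 and p300 increased at many, while PU.1 changed little. p65 rose at 54 of 56 regions and fell at none, where 57% of all p65 regions rose. p300 rose at 45 of 65 (42.1% of all regions), HDAC3 at 26 of 48 (27.5%), NCoR at 23 of 45 (23.4%), PGC1b at 19 of 36 (16.4%), Fosl2 at 13 of 32 (11.4%), ERK1 at 11 of 26 (10.3%) and PU.1 at 1 of 22 (4.53%). Falls were few: 3 for NCoR, where 16.7% of all regions fell, and 1 for HDAC3 (11.3%). No CXC region fell for PU.1 (21.7% of all regions), p300 (12.9%), PGC1b (6.35%), p65 (5.43%), Fosl2 (4.19%) or ERK1 (2.53%). The median log2 fold change over the CXC regions was 2.67 for p65, 2.25 for p300, 1.34 for ERK1, 1.29 for HDAC3, 1.27 for NCoR, 1.19 for Fosl2, 1.08 for PGC1b and 0.33 for PU.1. Over all regions the medians in the same order were 1.46, 0.65, 0.26, 0.27, 0.10, -0.14, 0.06 and -0.41. Scaling by trimmed means (TMM) in place of library totals shifted p65 log2 fold changes by -1.22 and left 35 of 56 rises, against 27.6% of all regions. It shifted p300 by -0.52 with 44 rises (32.7% of all regions) and PU.1 by 0.42 with 5 rises (9.13%). Each call given below as lost with TMM scaling was also lost with DESeq2, except that of ERK1 at the Cxcl10 promoter. Single libraries set some of these counts. NCoR rises numbered 12 and 13 without KLA replicate 1 and 2, and HDAC3 rises 17 without Veh replicate 2. Fosl2 rises numbered 0 without either Veh library and 21 without KLA replicate 1, PGC1b rises 10 without Veh replicate 2, ERK1 rises 6, 4 and 5 without Veh replicate 2, KLA replicate 1 and KLA replicate 2, and PU.1 rises 2 without either Veh library.

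**Figure D1:**
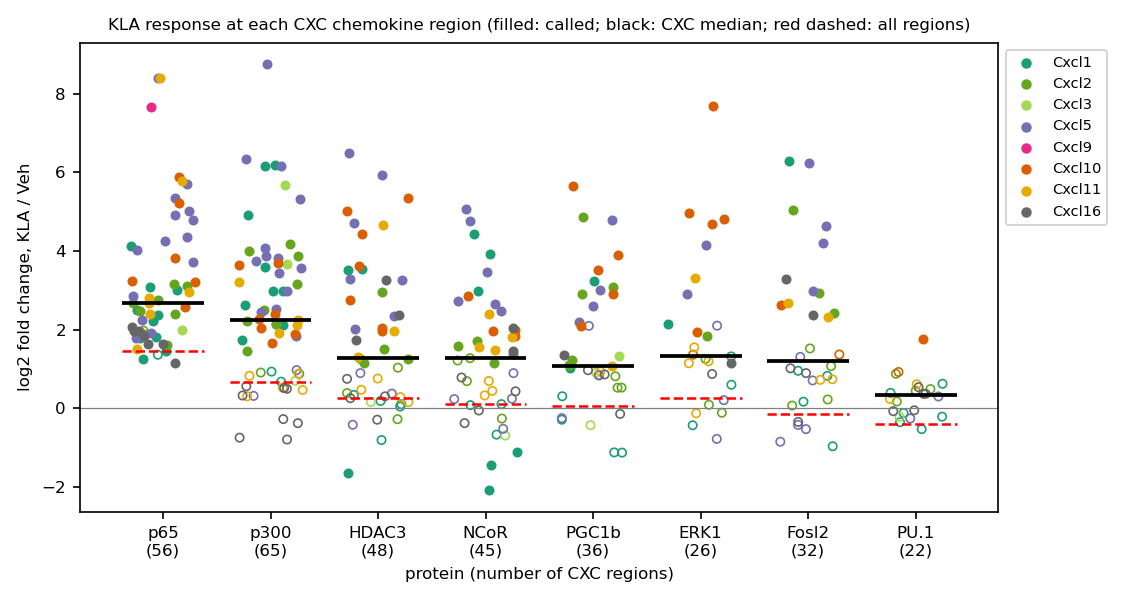
Log2 fold change of tags with KLA against Veh (vertical axis) at each CXC chemokine region, by protein (horizontal axis, with the number of regions). Filled points rose or fell, colours give the gene, and the black bar and red dashed bar are the medians of the CXC regions and of all regions. The CXC median lies above the median of all regions for each of the 8 proteins, from 0.33 against -0.41 for PU.1 to 2.67 against 1.46 for p65.

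Of the neutrophil chemokines, Cxcl2 had a promoter region in all 8 tables of Veh and KLA without solvent, whereas among these the Cxcl1 promoter had one in those of p65 and p300 only. At the Cxcl2 promoter p65 was 30.6 and 63.4 tags with Veh and 413 and 421 with KLA, a log2 fold change of 3.15 ± 0.29 (adjusted p = 6.5e-06). p300 there was 60.8 and 69.0 with Veh and 317 and 290.2 with KLA (2.23 ± 0.17, adjusted p = 1.3e-08). NCoR was 52.6 and 63.6 with Veh and 189.5 in both KLA libraries (1.70 ± 0.23, adjusted p = 0.00034). None of these groups overlapped. Both KLA libraries also exceeded both Veh libraries at 56 of 56 CXC regions for p65, 61 of 65 for p300 and 31 of 45 for NCoR. Such separation was not counted over all regions. HDAC3 went from 121.5 and 110 to 185 and 334 (1.14 ± 0.37, adjusted p = 0.0062), a call lost with TMM scaling and without either Veh library or KLA replicate 2. PGC1b and ERK1 at this promoter also passed the test, at 1.09 ± 0.34 and 1.84 ± 0.55 (adjusted p = 0.026 and 0.048), and both calls were lost with TMM scaling, PGC1b's also without either Veh library and ERK1's without Veh replicate 2 or either KLA library. Fosl2 (1.52 ± 0.71, adjusted p = 0.13) and PU.1 (0.49 ± 0.14) were not called.

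At the Cxcl1 promoter p65 was 8.76 and 6.52 tags with Veh and 19.4 and 23.3 with KLA (1.46 ± 0.55, adjusted p = 0.035), and p300 was 5.01 and 0 with Veh and 33.3 and 29.7 with KLA (3.59 ± 0.68, adjusted p = 0.00027). The p65 call was lost with TMM scaling and without either KLA library, and the p300 call with DESeq2. The Cxcl1 promoter shares its NF-kB letters with that of Cxcl2. Both proteins had more tags at 2 regions upstream, named after their values were seen. At 9.4 kb upstream p65 was 76.2 and 55.0 with Veh and 318 and 361 with KLA (2.37 ± 0.23, adjusted p = 1e-05), whereas NCoR there was 179.2 and 178.9 with Veh and 203 and 181 with KLA (0.10 ± 0.19, adjusted p = 0.68). At 10.1 kb upstream, 0.7 kb further out, the Veh level was near 0: p300 was 5.01 and 0.657 with Veh and 215 and 212 with KLA (6.18 ± 0.35, adjusted p = 7.7e-10). p65 there was 8.76 and 12.1 with Veh and 174 and 194 with KLA (4.13 ± 0.32, adjusted p = 2.5e-06). NCoR rose there by 4.43 ± 0.76, HDAC3 by 3.54 ± 0.71 and PGC1b by 3.24 ± 0.56 on the log2 scale, of which the HDAC3 call was lost with DESeq2. Fosl2 went from 0 and 4.19 to 128 and 258 (6.29 ± 1.04, adjusted p = 2.7e-07), a call lost without either Veh library.

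Cxcl1 also held the falls. All 3 NCoR regions that fell lay between 14.2 and 16.7 kb upstream of it. The strongest fall was at 16.7 kb, from 52.6 and 41.2 tags with Veh to 13.0 and 8.99 with KLA (-2.09 ± 0.45, adjusted p = 0.0039). The fall at 15.1 kb was -1.46 ± 0.48 and that at 14.2 kb -1.11 ± 0.32. Each call was lost without NCoR KLA replicate 2, the one at 15.1 kb also without KLA replicate 1 and the one at 14.2 kb also without Veh replicate 2. HDAC3 fell 3.2 kb downstream of the Cxcl1 start site, from 59.7 and 58.6 to 19.3 and 17.6 (-1.66 ± 0.47, adjusted p = 0.0016), a call lost without either Veh library. Cxcl3 had no p65 region at its promoter although the NF-kB letters are present, and its p65 region 2.2 kb upstream went from 8.76 and 33.6 to 87.5 and 80.7 (2.00 ± 0.47, adjusted p = 0.0035), a call lost with TMM scaling and without either KLA library. NCoR there was 52.6 and 116.5 with Veh and 57.5 and 47.0 with KLA (-0.70 ± 0.37, adjusted p = 0.15). Its promoter had a PGC1b region alone, at 50.5 and 45.1 with Veh and 31.7 and 38.3 with KLA (-0.43 ± 0.34, adjusted p = 0.39).

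Cxcl5 had the most p65 regions, 14, all of which rose, with a median log2 fold change of 4.30, and they lay up to 58.9 kb upstream. Within 2 kb of its start site only Fosl2 and p300 of the 8 proteins had a region with Veh and KLA without solvent. Fosl2 was not called there (-0.43) and p300 rose (2.98). The site 56.2 kb upstream had few tags with Veh for 7 of the 8 proteins, and all 7 rose with KLA. Regions with so few Veh tags were listed through the KLA libraries, which favours a rise. p65 was 5.25 and 12.1 tags with Veh and 333 and 378 with KLA (5.35 ± 0.32, adjusted p = 8.5e-07). NCoR was 4.78 and 18.8 with Veh and 334 and 321 with KLA (4.77 ± 0.36, adjusted p = 3.1e-05). HDAC3 was 8.002 and 16.6 with Veh and 237 and 432 with KLA (4.71 ± 0.44, adjusted p = 4.1e-24). The KLA libraries of HDAC3 lie far apart, yet both exceed each Veh library more than 10-fold. p300 was 3.13 and 1.97 with Veh and 184 and 194 with KLA (6.16 ± 0.32, adjusted p = 3.1e-10). PGC1b was 2.94 and 2.32 with Veh and 92.8 and 56.6 with KLA (4.78 ± 0.49, adjusted p = 4.5e-06). Fosl2 went from 16.9 and 13.6 to 205 and 357 (4.20 ± 0.82), a call lost without either Veh library, and ERK1 from 9.44 and 0 to 78.7 and 76.2 (4.16 ± 0.81, adjusted p = 0.012), a call lost with DESeq2. No PU.1 region and no H3K27ac region was listed at this site. H3K27ac was counted over accessible regions, which the paper's figure legends take at Veh. The missing H3K27ac region therefore does not show that acetylation was absent here.

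The site 17.1 kb upstream of Cxcl5 was the reverse case, occupied before KLA. PU.1 was 344 and 365 tags with Veh and 308 and 282 with KLA (-0.26 ± 0.08, under 2-fold, and 0.15 with TMM scaling). NCoR was 257 and 305 with Veh and 187 and 203 with KLA (-0.53 ± 0.18, under 2-fold). HDAC3 was 311 and 321 with Veh and 203 and 272 with KLA (-0.42 ± 0.38, adjusted p = 0.4), and p300 was 186 and 152 with Veh and 199.5 and 220.5 with KLA (0.31 ± 0.16, adjusted p = 0.092; -0.21 with TMM scaling). p65 alone rose, from 70.9 and 47.5 to 194 and 218 (1.79 ± 0.25, adjusted p = 0.00013), a call lost with TMM scaling.

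**Figure D2:**
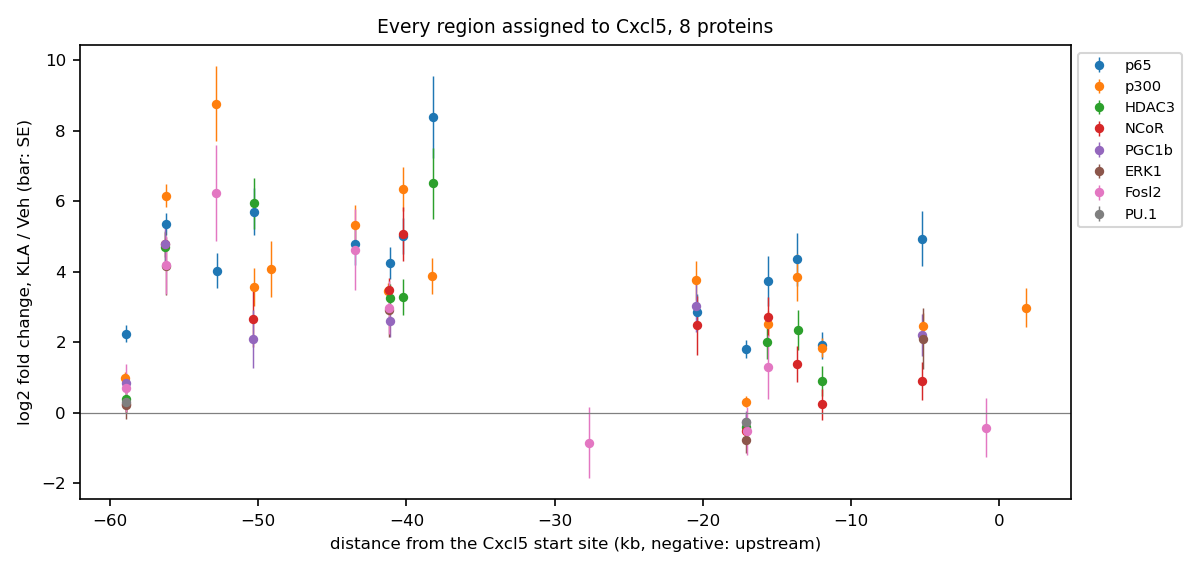
Log2 fold change with KLA against Veh (vertical axis, bars give the SE) of every region assigned to Cxcl5, against its distance from the Cxcl5 start site in kb (horizontal axis), coloured by protein. Rises of 4.16 to 6.16 cluster at 56.2 kb upstream, while at 17.1 kb p65 rose by 1.79 and PU.1 stood at -0.26.

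Of the interferon-inducible genes, Cxcl10 rose at each of its regions for p65 (6 of 6), NCoR (4 of 4), HDAC3 (7 of 7) and PGC1b (5 of 5), and at 5 of 6 for ERK1. Its promoter was the only one of 72 sites at which all 8 proteins rose. H3K27ac did not rise at this promoter in the NCoR flox/flox experiment, the only one with an H3K27ac region there. Its log2 fold change with KLA was -0.56 in WT and -0.48 in NKO cells, neither called. At the Cxcl10 promoter p65 was 59.5 and 38.2 tags with Veh and 436 and 487 with KLA (3.23 ± 0.24, adjusted p = 2.1e-06). NCoR was 62.1 and 98.9 with Veh and 321 and 257 with KLA (1.84 ± 0.25, adjusted p = 0.00035). p300 was 73.3 and 65.1 with Veh and 285 and 290 with KLA (2.05 ± 0.16, adjusted p = 2.9e-08). PU.1, in the single rise among its CXC regions, was 33.1 and 36.1 with Veh and 118 and 116 with KLA (1.76 ± 0.17, adjusted p = 3.4e-18). No Veh library of these 4 proteins reached a KLA library. The same held at 56 of 56 CXC regions for p65, 31 of 45 for NCoR, 61 of 65 for p300 and 14 of 22 for PU.1. These counts were not made over all regions. HDAC3 went from 65.5 and 58.6 to 236 and 277 (2.04 ± 0.37), Fosl2 from 59.2 and 33.6 to 261 and 312 (2.63 ± 0.74), PGC1b from 20.6 and 9.76 to 64.4 and 62.3 (2.08 ± 0.40) and ERK1 from 23.6 and 9.25 to 46.7 and 76.2 (1.94 ± 0.58). These 4 calls each rested on single libraries: HDAC3's and Fosl2's were lost without either Veh library, PGC1b's without Veh replicate 2, and ERK1's without Veh replicate 2 or either KLA library and with TMM scaling.

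Past the Cxcl10 start site ERK1 had 2 regions in the gene body and 2 downstream, HDAC3 3 in the body, PGC1b 3 and p65 2 downstream, and p300 1 in the body and 2 downstream, and all of them rose. NCoR, Fosl2 and PU.1 had none there. Regions in the gene body were named after their values were seen. Those near 0 with Veh were listed through the KLA libraries, so a rise there was largely set by that selection. ERK1 at 3.4 kb from the start site, past the end of the gene, went from 0 and 3.47 tags to 61.5 and 70.8 (4.96 ± 0.79, adjusted p = 0.007), and at 1.7 kb, in the gene body, from 0 and 3.47 to 56.6 and 51.7 (4.68 ± 0.84). HDAC3 at 2.2 kb went from 2.18 and 2.76 to 80.3 and 137 (5.36 ± 0.56). With DMSO as solvent, PGC1b at 1.6 kb went from 4.06 and 0 to 106.6 and 95.3 (5.22 ± 0.60, adjusted p = 1.3e-06), in an experiment in which 30 of 60 CXC regions rose (16.4% of all regions) and none fell (1.23%). Over 28 CXC regions whose centres lay within 100 bp of each other in both PGC1b experiments, 12 rose without solvent and 13 with DMSO, and 9 in both.

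The Cxcl11 promoter had little of any protein before KLA. p65 went from 0 and 1.86 tags to 57.4 and 52.7 (5.78 ± 0.74, adjusted p = 6.7e-05), p300 from 4.39 and 1.97 to 28.1 and 31.9 (3.20 ± 0.55) and HDAC3 from 0 and 1.66 to 17.6 and 36.9 (4.66 ± 0.96). NCoR went from 7.17 and 5.89 to 19.4 in both libraries (1.56 ± 0.55, adjusted p = 0.039) and ERK1 from 9.44 and 0 to 41.8 and 44.9 (3.31 ± 0.93, adjusted p = 0.039). The NCoR and ERK1 calls were lost without either KLA library, NCoR's also with DESeq2 and ERK1's also without Veh replicate 2. Its p65 region with the most tags, 11.6 kb upstream, went from 39.4 and 63.4 to 359 and 354 (2.80 ± 0.25, adjusted p = 5.7e-06). Cxcl9 had a single region in all the tables, p65 at its promoter, which was listed through its KLA libraries. No tag was counted there with Veh and 20.0 and 19.2 with KLA, at least 14.5-fold higher against a floor of 3 tags over both Veh libraries (adjusted p = 0.0004). The call was lost without either KLA library.

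The Cxcl16 regions held several of these proteins before KLA. Its 7 p65 regions all rose, by 1.15 to 2.07 on the log2 scale, while none of its 8 p300 regions did (median 0.02). At the site with the most tags, 8.0 kb upstream, p65 went from 155 and 237 to 582 and 638 (1.64 ± 0.21, adjusted p = 7.7e-05), whereas p300 was 283 and 220.1 with Veh and 302 and 327 with KLA (0.32 ± 0.15, adjusted p = 0.066; -0.20 with TMM scaling). NCoR there was 243 and 337 with Veh and 309 and 247 with KLA (-0.06 ± 0.21), and HDAC3 was 248 and 258 with Veh and 242 and 365 with KLA (0.25 ± 0.38; -0.05 with TMM scaling). At the Cxcl16 promoter p65 went from 73.5 and 67.1 to 242 and 304 (1.96 ± 0.22) and NCoR from 39.4 and 83.6 to 166 and 171 (1.45 ± 0.31, adjusted p = 0.0035). Both Cxcl16 p65 calls named here were lost with TMM scaling.

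**Figure D3:**
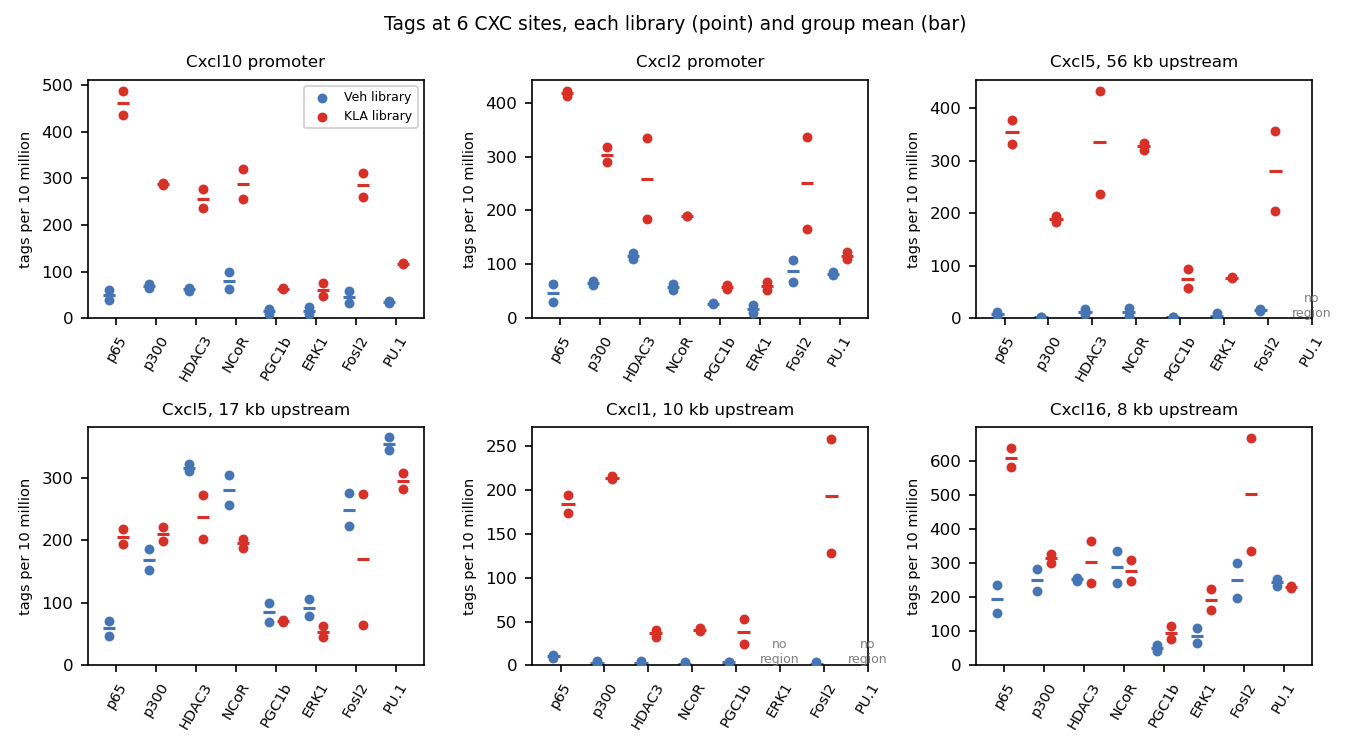
Tags per 10 M (vertical axes) of 8 proteins (horizontal axes) at 6 sites, with a point for each library and a bar for each group mean, where blue is Veh and red is KLA. KLA libraries stand above Veh libraries for all 8 proteins at the Cxcl10 promoter, whereas at 17.1 kb upstream of Cxcl5 PU.1 is at 344 and 365 with Veh and 308 and 282 with KLA.

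Grouping regions whose centres lay within 500 bp gave 72 CXC sites. All 8 proteins had a region at 12 sites, at least 6 proteins at 25 and a single protein at 18. After the Cxcl10 promoter, with 8 rises, came the Cxcl2 promoter (7 of 8 proteins rose) and the sites 56.2 and 41.2 kb upstream of Cxcl5 (7 of 7). Calls in each of these sites were lost under an alternative scaling or test or without single libraries, as given above for the sites named.

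Other genes of the pathway give the setting. Over all p65 regions 57% rose and 5.43% fell. For p65, 140 of 156 regions of 10 NF-kB feedback and early target genes rose and none fell (median 2.70), and 34 of 40 regions of 12 interferon response genes rose (median 2.35). Of 37 p65 regions of other CXC ligands and receptors, 15 rose and 6 fell (median 0.80, smaller in size than the -1.22 shift of TMM scaling). For PU.1, 23 of 42 regions of these other CXC genes fell and 1 rose, where 0 of 22 regions of the 8 chemokines fell and 1 rose. Over all PU.1 regions 21.7% fell and 4.53% rose. HDAC3 rose at 69 of 85 interferon response regions (27.5% of all regions) and fell at 2 (11.3%), with a median of 3.43. ERK1 rose at 44 of 63 (10.3% of all regions), with a median of 3.22. Both medians exceed those at the chemokines, 1.29 and 1.34.

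H3K27ac with KLA rose at 4 of 12 CXC windows of 1000 bp in DMSO-treated cells and fell at none. Among all windows 6.73% rose and 28.1% fell. With TMM scaling, which shifted log2 fold changes by 0.42, 6 rose (12.5% of all windows). The largest rise was 6.0 kb upstream of Cxcl11, within Art3, from 38.2 and 35.8 tags to 400.2 and 340.0 (3.32 ± 0.24, adjusted p = 1.4e-39). The window 4.9 kb upstream of Cxcl10 went from 37.4 and 38.4 to 308 and 258 (2.90 ± 0.25, adjusted p = 3.8e-30). The Cxcl2 promoter went from 23.3 and 25.3 to 154 and 152 (2.65 ± 0.27, adjusted p = 1.1e-20), and the window 11.5 kb upstream of Cxcl11 from 230.1 and 169 to 579.6 and 455 (1.37 ± 0.20). KLA and Veh libraries did not overlap in any of these 4 windows, but this was not limited to windows that rose. Of the 12 CXC windows, 7 had both KLA libraries above both Veh libraries and 2 had both below, a count not made over all windows.

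With RGFP966 added to KLA, 3 CXC windows rose and 1 fell against DMSO with KLA, where 26.9% of all windows rose and 9.53% fell. The fall was 6.0 kb upstream of Cxcl11, to 179 and 144 tags (-1.20 ± 0.20, adjusted p = 4.1e-08). At 11.5 kb upstream of Cxcl11 the RGFP966 libraries were at 392 and 307 (-0.57 ± 0.19) and at 4.9 kb upstream of Cxcl10 at 216 and 174 (-0.54 ± 0.20), both under 2-fold. The Cxcl2 promoter was at 164 and 128 (-0.07 ± 0.22, adjusted p = 0.8; 95% interval of the log2 difference -0.49 to 0.36). The 3 rises were at 59 kb upstream of Cxcl5, from 32.4 and 46.3 to 87.5 and 88.1 (1.17 ± 0.26), at 17.1 kb upstream of Cxcl5, from 31.7 and 27.8 to 81.0 and 65.03 (1.29 ± 0.28), and at 29.2 kb upstream of Cxcl1, from 15.5 and 17.7 to 57.9 and 35.2 (1.49 ± 0.34). TMM scaling, a shift of -0.34, left the fall (18.9% of all windows fell) and the rise near Cxcl1 (16.1% rose). The rise at 59 kb was also lost without DMSO KLA replicate 1.

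In PGC1b flox/flox cells H3K27ac rose with KLA at 5 of 11 CXC windows tested (5.22% of all windows rose and 25.6% fell), and in PGC1b flox/flox, LysMCre cells also at 5 of 11 (4.18% and 32.5%), and none fell. The window 6.0 kb upstream of Cxcl11 went from 41.5 and 47.8 to 367 and 361 in PGC1b flox/flox cells (3.03 ± 0.14) and from 51.8 and 53.7 to 263 and 313 with LysMCre (2.45 ± 0.14). The 2 responses differed by -0.58 ± 0.22 (interaction, adjusted p = 0.044), which is under 2-fold. With TMM scaling the difference was -0.40 (adjusted p = 0.23). The Cxcl2 promoter went from 71.8 and 52.0 to 198 and 197 without Cre (1.66 ± 0.16) and from 72.3 and 50.4 to 142 and 143 with it (1.21 ± 0.17, a call lost without LysMCre Veh replicate 2). With KLA the genotypes differed there by -0.47 ± 0.15 (adjusted p = 0.0051), under 2-fold. At 59 kb upstream of Cxcl5 the responses were 1.41 ± 0.22 and 1.43 ± 0.23. Between genotypes, edgeR called 0 of 11 windows with Veh, with KLA and for the response, as did DESeq2. By edgeR 1, 6 and 1 had an unadjusted p under 0.05, a count not made over all windows. With KLA the median log2 difference was -0.25 over the CXC windows and -0.38 over all windows. Over all windows the shares higher and lower with LysMCre were 0.107% and 0.29% with Veh, 0.702% and 6.81% with KLA, and 0.77% and 4.6% for the response.

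**Figure D4:**
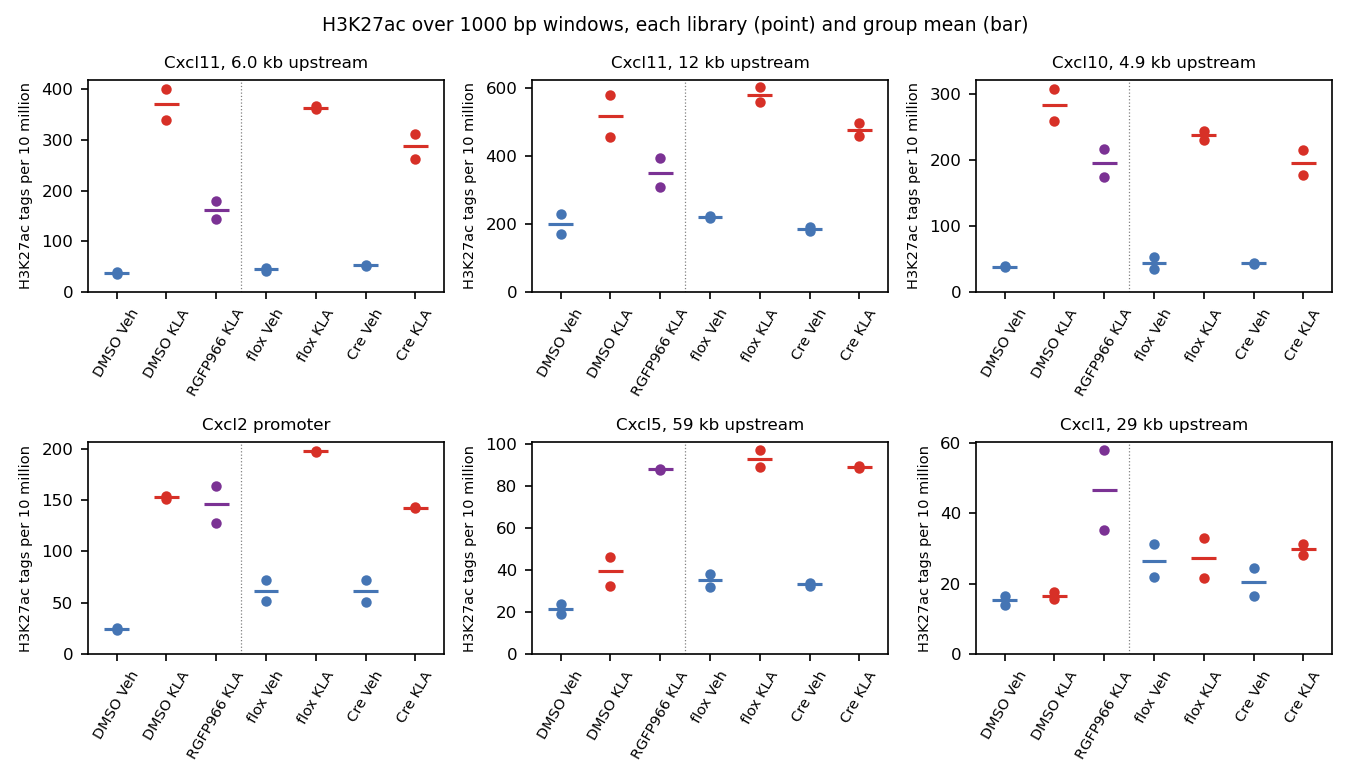
H3K27ac tags per 10 M (vertical axes) in 6 windows of 1000 bp, with a point for each library and a bar for each group mean, for the RGFP966 experiment (left of the dotted line) and the PGC1b flox experiment (right). RGFP966 with KLA is at 179 and 144 tags at 6.0 kb upstream of Cxcl11, below DMSO with KLA, and at 87.5 and 88.1 at 59 kb upstream of Cxcl5, above it.

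In the NCoR flox/flox experiment the regions were narrower (median 291 bp) and their levels lower. H3K27ac rose with KLA at 2 of 9 CXC regions in WT cells (6.49% of all regions rose and 3.72% fell) and at 1 of 9 in NKO cells (2.75% and 7.96%), and fell at none. Near Cxcl11, 5.9 kb upstream, WT went from 5.04 and 9.17 tags to 16.98 and 33.1 (1.78 ± 0.50, adjusted p = 0.0095) and NKO from 7.37 and 5.80 to 19.6 and 41.7 (2.20 ± 0.51, adjusted p = 0.0018). At the Cxcl2 promoter WT went from 11.3 and 5.09 to 27.04 and 17.2 (1.45 ± 0.49, adjusted p = 0.037), while NKO was 10.3 and 11.6 with Veh and 17.5 and 36.1 with KLA (1.26 ± 0.48, adjusted p = 0.066). The WT call near Cxcl11 was lost without WT Veh replicate 1 or WT KLA replicate 2, the NKO call without NKO KLA replicate 2, and the Cxcl2 call without WT Veh replicate 2 or WT KLA replicate 1 and with TMM scaling. NKO and WT themselves were called different by edgeR in 0 of 9 regions with Veh, with KLA and for the response to KLA, as by DESeq2. By edgeR 1, 2 and 0 had an unadjusted p under 0.05, a count not made over all regions. With KLA the median log2 difference was 0.25 over the CXC regions and -0.04 over all regions. Over all regions the shares higher and lower in NKO were 0.973% and 0.027% with Veh, 0.4% and 0.389% with KLA, and 0.027% and 0.67% for the response.

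ERKi added to KLA left PGC1b higher at 2 regions past the end of Cxcl1 and at 1 near the Cxcl10 start site. It rose at 3 of 60 CXC regions, where 0.108% of all regions rose, and fell at none (0.178%). At 2.3 kb downstream of the Cxcl1 start site PGC1b went from 1.97 and 5.95 tags with DMSO and KLA to 75.1 and 127 with ERKi and KLA (4.54 ± 0.74, adjusted p = 0.012), and at 3.0 kb from 45.4 and 22.3 to 167 and 219 (2.54 ± 0.50, adjusted p = 0.025). At 0.5 kb downstream of the Cxcl10 start site it went from 67.1 and 90.8 to 293 and 193 (1.61 ± 0.35, adjusted p = 0.041). ERKi libraries exceeded DMSO libraries in all 3 regions. Over the 60 CXC regions both ERKi libraries lay above both DMSO libraries at 20 and below both at 13. This separation was not counted over all regions. The call at 3.0 kb was lost with DESeq2. Without any 1 of the 4 libraries compared, edgeR called 0 of 60 regions, and with all 4, 14 had an unadjusted p under 0.05. That unadjusted count was not made over all regions, and the CXC median log2 fold change was 0.04. Of 139 regions of interferon response genes 4 rose and none fell (median 1.02, against -0.20 over all regions). At the Cxcl10 promoter PGC1b was 152 and 128 with DMSO and 153 and 145 with ERKi (0.09 ± 0.33, adjusted p = 0.93).

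NCoR with ERKi and KLA was lower than with KLA alone across the genome, with a median of -1.20 over all regions, and the CXC median was -0.88. Both ERKi libraries carry a later date in their names than both KLA libraries, and NCoR had no DMSO group, so ERKi cannot be told apart from the library date or the solvent. A KLA time is labelled for the KLA libraries and not for the ERKi libraries. Of 50 CXC regions, 16 fell (48.6% of all regions) and 4 rose (0.634%). TMM scaling shifted log2 fold changes by 1.16, after which 0 fell (3.38% of all regions) and 6 rose (3.45%). The falls included the Cxcl10 promoter, from 334 and 258 to 134 and 137 (-1.12 ± 0.22, adjusted p = 0.0013; 0.05 with TMM scaling), and the region 8.8 kb upstream of Cxcl16, from 133 and 170.2 to 57.5 and 50.0 (-1.50 ± 0.25, adjusted p = 0.00048), a call lost with TMM scaling. At the Cxcl2 promoter NCoR was 197 and 194 with KLA and 175 and 140 with ERKi (-0.31 ± 0.21), and 56.3 kb upstream of Cxcl5 334 and 326 with KLA and 175 and 162 with ERKi (-0.97 ± 0.24, under 2-fold). With TMM scaling these 2 became 0.85 and 0.20. All 4 rises were at Cxcl1. At its promoter NCoR went from 3.24 and 9.68 with KLA to 42.3 and 52.6 with ERKi (2.83 ± 0.63, adjusted p = 0.003), at 0.4 kb downstream from 2.43 and 0 to 12.7 and 15.5 (3.51 ± 1.13), at 15.02 kb upstream from 11.3 and 24.2 to 48.2 and 37.9 (1.26 ± 0.46) and at 16.7 kb upstream from 13.0 and 8.99 to 18.6 and 37.9 (1.36 ± 0.52). The last is the region at which NCoR fell most with KLA, and the rise at 15.02 kb lies close to another of those falls. Both comparisons use the same KLA libraries. Without KLA replicate 1, 0 regions rose and 5 fell, without KLA replicate 2, 2 rose and 6 fell, and without ERKi replicate 2, 2 rose and 11 fell.

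**Figure D5:**
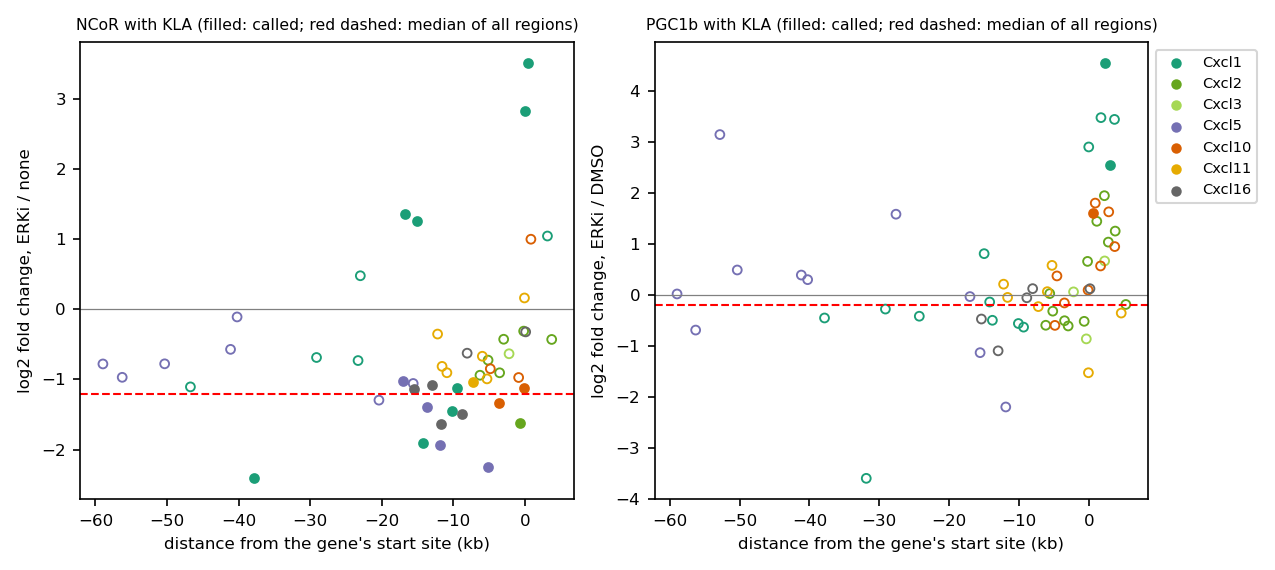
Log2 fold change with ERKi added to KLA (vertical axes) for NCoR (left) and PGC1b (right) at each CXC region, against distance from the gene's start site in kb (horizontal axes). Colours give the gene, filled points rose or fell, and the red dashed line is the median of all regions. The filled points above 0 belong to Cxcl1 for NCoR and to Cxcl1 and Cxcl10 for PGC1b.

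In osteoclast precursors from bone marrow, between day 0 and day 4 of RANKL, p300 rose at 11 of 15 CXC regions and fell at none. Of all p300 regions 62.2% rose and 0.248% fell. The region with the most tags, 8.0 kb upstream of Cxcl16, went from 30.8 and 36.2 tags to 187 and 252 (2.73 ± 0.35, adjusted p = 0.00018), and 2 other regions had larger log2 fold changes, 3.92 at Cxcl11 and 2.83 at Cxcl16. TMM scaling shifted log2 fold changes by -1.61, after which 0 of 15 rose (8.8% of all regions; DESeq2 also called 0, and 13 had an unadjusted p under 0.05 by edgeR without TMM), and 3 and 1 rose without day 4 replicate 1 and 2. The unadjusted count was not made over all p300 regions, whose median log2 fold change was 1.84, against 2.11 over the CXC regions. ERK1 rose at 1 of 13 (2.33% of all regions rose and 0.0267% fell), 11.5 kb upstream of Cxcl11, from 7.75 and 6.31 to 60.7 and 37.0 (2.76 ± 0.69, adjusted p = 0.043), a call lost with TMM scaling and without any 1 of the 4 libraries. Promoters of 4 of 5 osteoclast marker genes had a p300 region, with a summed level of 132 to 135 at day 0 and 650 to 723 at day 4. ERK1 day 4 replicate 2 is described in its labels as rep3 with another date, and its name lacks the NCoRWT of the other ERK1 libraries compared. Whether its genotype differs is not stated.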

How the data were processed

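ChIP-seq libraries were cross-linked with formaldehyde for H3K27ac, or with disuccinimidyl glutarate and formaldehyde for the other proteins, and sequenced single-end. The authors aligned reads to mm10 with Bowtie2, called peaks with HOMER and kept reproducible ones by IDR, merged them, and deposited raw tag counts per region, counted with at most 3 tags per position; software versions are not given in the sources used here. H3K27ac was counted over accessible regions. By the paper's figure legends these were found at Veh, while its methods name the same conditions. A merged region is the same in all libraries of a table, so a region near 0 in 1 group was found through the other.

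Libraries were grouped by their labels, 2 biological replicates a group, 70 libraries in 15 tables; 4 NCoR libraries stand in 2 tables, so the KLA and ERKi comparisons of NCoR share samples. Library sizes were the totals in the file headers. Each table was fitted once with edgeR 4.0.16 (quasi-likelihood F-test, R 4.3.3) over all its regions with at least 4 tags in a library (16 for H3K27ac), with Benjamini-Hochberg adjustment over all of them; the code was tested on simulated data. Standard errors are the log2 fold change divided by the square root of F, and 95% intervals are normal ones from it. A region called is one with an adjusted p under 0.05 and over 2-fold. A fold against a group without tags used a floor of 3 tags over both its libraries. Alternatives were TMM factors, DESeq2 1.42.0, no filter, a replicate block, each library left out, and other site distances. No 2 replicates agreed within sampling noise.

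The members and gene lists were chosen with earlier results of these data known. Regions named were taken, by rule, from each gene's promoter region (within 2 kb), its region with the most tags, and the region with the lowest p in each comparison and direction. Not every region that met this rule is named. Further regions are said to be named after their values were seen. So were the sites 9.4 and 10.1 kb upstream of Cxcl1, the regions around 14.2 to 16.7 kb upstream of it, the second H3K27ac windows and the uncalled values under ERKi. Gene positions and promoter sequences are from RefSeq on GRCm38.p6, the same build: all 501 distances in the tables lay within 200 bp of its start sites. With 2 libraries a group, precision is limited by replicates more than by depth.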

Additional observations from a re-analysis of the deposited data

Results flagged for a closer look

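The window 6.0 kb upstream of Cxcl11 was picked out because the H3K27ac response to KLA differed between genotypes by a test of the difference itself. The log2 response was 3.03 in PGC1b flox/flox cells and 2.45 in PGC1b flox/flox, LysMCre cells, a difference of -0.58 ± 0.22 (edgeR interaction, adjusted p = 0.044, n = 2 libraries a group). Over 12 alternatives the adjusted p ran from 0.024 to 0.28 and was under 0.05 in 4 of them; it was 0.23 with TMM factors and 0.28 with DESeq2. Both LysMCre libraries with KLA lay below both PGC1b flox/flox libraries with KLA, as they did in 8 of the 11 CXC windows. That count was not made over all windows. With KLA the median log2 difference between genotypes was -0.25 over the CXC windows and -0.38 over all windows.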

How the results depend on the processing

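The 118 named values were recomputed 1076 times under the alternatives; 921 kept direction and side of the threshold and 19 reversed. With TMM factors 92 of 118 did so, with DESeq2 89, without a filter 118. The replicate block left 110 and left 4 of 13 Fosl2 calls; the replicate numbers did not pair the samples, since correlations of same-numbered deviations lay between -0.027 and 0.029. Counts of CXC regions called that moved by over 1.5 times with TMM factors (DESeq2 in parentheses) were p65 35 (34) from 54, PU.1 5 (5) from 1, NCoR with ERKi 6 (6) from 20, ERK1 day 4 0 (0) from 1, p300 day 4 0 (0) from 11, H3K27ac in WT 1 (1) from 2, in NKO 2 from 1 with TMM only, and RGFP966 2 (2) from 4. Leaving out 1 library, counts ran from 13 to 29 for NCoR, 17 to 30 for HDAC3, 0 to 21 for Fosl2, 1 to 2 for PU.1, 10 to 27 for PGC1b, 4 to 13 for ERK1, 0 to 2 for PGC1b with ERKi, 5 to 20 for NCoR with ERKi, 0 to 2 for ERK1 day 4, 1 to 13 for p300 day 4, 1 to 2 for H3K27ac in WT and 0 to 2 in NKO. Log2 fold changes that reversed were, with TMM (DESeq2), HDAC3 at Cxcl16 8.0 kb upstream -0.047 (-0.032), PU.1 at Cxcl5 17.1 kb 0.15 (0.15), p300 at Cxcl16 8.0 kb -0.20 (-0.15) and at Cxcl5 17.1 kb -0.21 (-0.16), and NCoR with ERKi at the Cxcl10 promoter 0.047 (0.060), the Cxcl2 promoter 0.85 (0.87) and Cxcl5 56.3 kb 0.20 (0.21). Without single libraries, NCoR at Cxcl16 8.1 kb ran from -0.28 to 0.19 (0.10 without KLA replicate 2), HDAC3 at Cxcl16 8.0 kb from -0.064 to 0.53, PGC1b with ERKi at the Cxcl10 promoter from -0.029 to 0.22, and RGFP966 at the Cxcl2 promoter from -0.26 to 0.10. TMM and DESeq2 both replace the library totals, which centres all regions near no change; the cause of the other changes was not tested. Sites numbered 72, 87 and 56 with centres at most 500, 250 and 1000 bp apart.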

Other observations

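Other CXC ligands and receptors went the other way from the 8 chemokines for several proteins. With KLA, NCoR fell at 13 of their 34 regions (16.7% of all regions) and rose at 3, p300 fell at 22 of 51 (12.9%) and rose at 12, and H3K27ac in DMSO-treated cells fell at 10 of 14 windows (28.1% of all windows) and rose at 2 (median log2 fold change -2.13). With RGFP966 added to KLA, H3K27ac rose at 9 of these 14 windows (26.9% of all windows) and fell at none (median 1.27). Of 17 windows of interferon response genes 12 rose with KLA (6.73%), and 3 fell (9.53%) and 1 rose with RGFP966.

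Among 6896 genes with a region in all 8 Veh and KLA tables, the gene whose log2 fold changes at its region with the most tags lay closest to those of Cxcl1 was Trmt112 (Euclidean distance 0.74 over 8 proteins), to Cxcl2 Pik3c2a (0.81), to Cxcl5 Spred1 (0.95), to Cxcl10 Cartpt (1.40), to Cxcl11 Nr1h3 (0.59) and to Cxcl16 Pccb (0.56). Cxcl3 and Cxcl9 had too few regions to be compared.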
